A study of Homo sapiens with 4 samples.

Results

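The miR-320 family was followed in 4 small RNA-seq libraries of human cortical interneurons, and its members were taken by name: every entry of the count table called miR-320 with a letter from a to e, with or without an arm suffix. This gave 6 of the 2656 mature miRNAs listed, namely miR-320a-3p, miR-320a-5p, miR-320b, miR-320c, miR-320d and miR-320e. The interneurons were differentiated from H1, a human embryonic stem cell line, and all libraries come from this 1 line. In 2 of the cultures the maturation medium held ethanol at around 50 to 100 mM for 7 days, followed by a day without it, and the other 2 cultures were kept for 7 days without ethanol. The treatment was done in duplicate, and P values measure only the spread between these duplicates.

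Most miRNAs are cut from a long primary transcript by Drosha in the nucleus and then by Dicer in the cytoplasm. miR-320a is a textbook exception: its short hairpin is itself the start of a transcript, carries a 5′ cap, is exported to the cytoplasm and goes to Dicer without a Drosha step, and the 3p strand is the one that is loaded into Argonaute. Mirtrons, which are hairpins released by splicing, bypass Drosha in another way. Like other miRNAs, those of this family recognise target mRNAs mainly through the seed, bases 2 to 8 counted from the 5′ end.

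RefSeq (GRCh38.p14), as used here, held no sequence for miR-320a, so the seed and bases of miR-320a were not compared. It gave mature sequences for 4 of the members. They are shown 5′ to 3′ with the seed in capitals, because the results below turn on how few bases separate the members, and miR-4429 is added as the only other RefSeq mature miRNA with a seed of these members.
miR-320b: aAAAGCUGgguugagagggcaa
miR-320c: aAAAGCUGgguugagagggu
miR-320d: aAAAGCUGgguugagagga
miR-320e: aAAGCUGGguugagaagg
miR-4429: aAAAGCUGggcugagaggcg

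miR-320b, miR-320c, miR-320d and miR-4429 had the seed AAAGCUG, which 4 of the 2370 RefSeq mature miRNAs carried. miR-320e started 1 base later within the same stretch, so that its seed read AAGCUGG, and no other RefSeq miRNA had it. Counted from the 5′ end of miR-320b, miR-320c differed from it by C20U and ended there, and miR-320d differed by G19A and ended there. The first 19 bases of miR-320c and the first 18 bases of miR-320d were those of miR-320b. Aligned from the second base of miR-320b, miR-320e shared its first 15 bases and carried G17A. miR-4429 shared only the first 10 bases with miR-320b and differed by U11C, G19C and C20G. A read that ends before base 19 therefore cannot be given to miR-320b, miR-320c or miR-320d alone. One that ends at base 19 cannot be divided between miR-320b and miR-320c. Without a sequence for miR-320a, reads common to miR-320a-3p and another member could not be described. How the authors' counting divided such reads is not given in the sources used here, so counts of single members are uncertain by the amount that was shared.

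The genes of the family were scattered over the genome (GENCODE 29, GRCh38). MIR320A lies on chromosome 8 from 22244962 to 22245043 on the minus strand, outside any other annotated gene. It is 61 bases from a start of POLR3D, which encodes a subunit of RNA polymerase III and is read from the opposite strand. Of 1881 annotated miRNA genes, 4.09% had a protein-coding start within 100 bases and 12.9% within 1000 bases. The other genes of the family were farther from such starts, between 3994 and 76372 bases. MIR320B1 (chromosome 1, 116671749 to 116671827, plus strand), MIR320D1 (chromosome 13, 40727828 to 40727875, minus strand) and MIR320D2 (chromosome X, 140926172 to 140926219, minus strand) overlap no other gene. MIR320B2 (chromosome 1, 224257004 to 224257141, minus strand) lies in an intron of NVL and MIR320E (chromosome 19, 46709293 to 46709345, minus strand) in an intron of PRKD2, each on the strand of its host. MIR320C1 (chromosome 18, 21683510 to 21683597, plus strand) and MIR320C2 (chromosome 18, 24321686 to 24321735, plus strand) lie within introns of ABHD3 and OSBPL1A, opposite to them. Since miR-320b, miR-320c and miR-320d each have a pair of genes with 1 mature sequence, their counts cannot be divided between loci.

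The 7 hairpins of miR-320b to miR-320e in RefSeq were 71 to 73 bases long, against a median of 80 over 1560 hairpins, and each held its mature miRNA on the 3′ side. Their pairwise identity was between 69.4% and 83.3% (median 76.7% over 21 pairs). Between the mature sequence and the end of the hairpin, 66.7% to 81.8% of the 9 to 12 bases were A, while the median was 21.4% over 758 other hairpins with a mature miRNA on that side. The 10-base word of the 5′ side that most of the 7 shared was CCAGUUCUUC, found in 5 of them and in none of the other hairpins (0.321% of all hairpins hold it). Only the strand of the hairpin was searched. These are descriptions of sequence and do not show how the hairpins are processed.

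The deposited counts summed to between 12100425 and 24858230 per library, and both exposed libraries were deeper than both unexposed ones. The 7 neuronal marker miRNAs checked, among them miR-124-3p and miR-9-5p, were found in every library. Together they made up 350044 to 386933 CPM (counts scaled to the library total) in exposed and 393755 to 413009 CPM in unexposed cells, mostly miR-9-5p and miR-7-5p. Summed pluripotency markers stayed at or below 4.13 CPM, with miR-367-3p and miR-373-3p at 0 counts. Leukocyte and microglia markers stayed at or below 0.0826 CPM, and erythroid markers at or below 0.684 CPM. Oligodendrocyte markers summed to between 64.3 and 122.9 CPM, mostly miR-219a-2-3p. Mesenchymal and vascular markers summed to 976.9 to 1268 CPM in exposed and 836.3 to 968.2 CPM in unexposed cells, mostly miR-126-3p. The mesenchymal and vascular sums, scaled by library totals only, did not overlap between the groups. Neither did the neuronal ones, nor the low pluripotency and erythroid ones. Among single tested miRNAs, 33.4% had groups that did not overlap after scaling between libraries. The part of these marker sums in the values of the family was not tested. In such bulk libraries, fewer cells of a type and less RNA per cell cannot be told apart.

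The family as a whole took a small share of each library, nearly all of it from miR-320a-3p. Its members summed to 65905 and 78271 counts in the exposed cells, which is 0.297% and 0.315% of the library, and without ethanol to 55764 and 43982 counts, which is 0.400% and 0.363%. Both exposed shares were below both unexposed shares. After scaling by TMM, which sets libraries on a common scale by the bulk of the miRNAs, the family averaged 2903 ± 429 CPM with ethanol and 4089 ± 928 CPM without it (SD, n = 2 each). On this scale 14.6% of all tested miRNAs had both exposed libraries below both unexposed ones, as the family sum had. The difference of the family sum was -0.49 as a log2 fold change, with a standard error of 0.26. It was -0.24 when unexposed replicate 1 was left out, -0.73 when unexposed replicate 2 was, and -0.32 with libraries scaled by their totals alone. When the miR-320a entries were left out, the sum differed by -0.096 on the log2 scale (standard error 0.21).

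Among the members, levels were spread widely, and their order was the same in every library: miR-320a-3p, miR-320b, miR-320c, miR-320d, miR-320e and miR-320a-5p. On the TMM scale, miR-320a-3p was between 8.78 and 16.0 times miR-320b within a library, miR-320b between 2.63 and 3.75 times miR-320c, and miR-320c between 2.33 and 2.54 times miR-320d. miR-320e was 11.6 to 18.8 times below miR-320d, a range that overlaps that of the first step. Reads were counted per mature miRNA, so no correction for length was made. These levels still depend on how reads that match several members were divided. By abundance, miR-320a-3p ranked between 30 and 42 among the mature miRNAs of a library, miR-320b between 120 and 127, miR-320c between 169 and 195, miR-320d between 242 and 262, and miR-320e between 545 and 601.

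**Figure D1:**
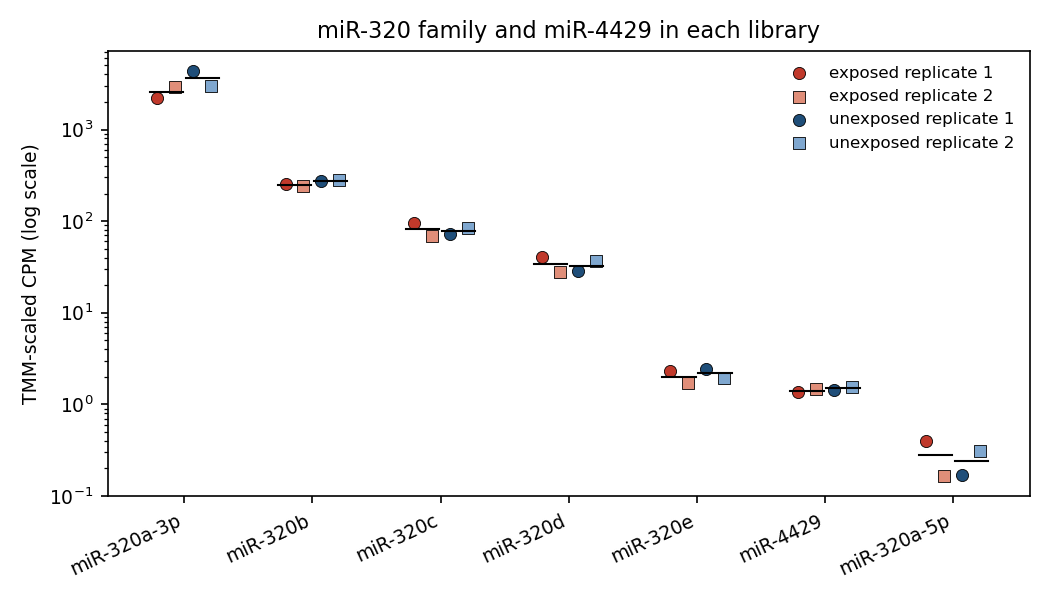
TMM-scaled CPM (log scale) of the 6 miR-320 members and miR-4429 in the 4 libraries. Red symbols are ethanol-exposed, blue symbols unexposed, and short lines are group means (n = 2). miR-320a-3p lies between 2221 and 4352 CPM, and the other members follow in steps down to miR-320a-5p, which stays under 0.4 CPM.

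The comparison of exposed with unexposed cells asks which miRNAs a week of ethanol changes in interneurons. None of the members passed the threshold by which the study listed changed miRNAs in the cells. This was an unadjusted P under 0.05 together with a change of more than 2-fold, which 2.32% of all tested miRNAs passed. For its networks the study used 1.3-fold with the same P, and for its overlaps with brain regions that P alone. Of the 6 members, 5 passed the filter on low counts and were tested among 863 miRNAs with edgeR's quasi-likelihood test. Of these, 0 had an unadjusted P under 0.05 in edgeR, and likewise 0 in limma-voom and 0 in DESeq2, where 4.52%, 3.59% and 3.24% of all tested miRNAs had one. By direction in edgeR, 2.55% were higher and 1.97% lower in exposed cells with such a P, and the lower share was 1.74% in limma-voom and 1.51% in DESeq2. No miRNA kept an adjusted p under 0.05 in edgeR (0 of 863, against 39 before Benjamini-Hochberg adjustment), and the members' smallest adjusted p was 0.922. The median log2 fold change was -0.12 over the 5 tested members and -0.010 over all tested miRNAs.

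miR-320a-3p, the most abundant member, was counted 56011 and 70065 times in exposed libraries and 51327 and 38794 times in unexposed libraries. Scaled by TMM, these were 2221 and 2879 CPM in exposed and 4352 and 3015 CPM in unexposed cells. The groups did not overlap, but the exposed replicate 2 and the unexposed replicate 2 lay close together, and the unexposed replicate 1 stood above the rest. Of all tested miRNAs, 33.4% had groups that did not overlap, and 14.6% had both exposed libraries below both unexposed ones. Exposed cells averaged 2550 ± 465 CPM and unexposed cells 3683 ± 945 CPM (SD, n = 2 each). This was a log2 difference of -0.53 with a standard error of 0.27, an unadjusted P of 0.0830 and an adjusted p of 0.922 in edgeR, and an exact permutation test gave 0.333, the smallest two-sided p that 2 libraries against 2 allow. Of the tested miRNAs, 8.23% had a lower log2 fold change.

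The size of this difference moved most with the unexposed library that was left out. For miR-320a-3p the log2 fold change was -0.25 when unexposed replicate 1 was left out (edgeR P 0.333), and -0.80 when unexposed replicate 2 was, with an unadjusted P of 0.00351 and an adjusted p of 0.124 in edgeR. In that last fit, with a lone unexposed library assumed to vary like the exposed ones, 11.4% of all tested miRNAs had a P under 0.05 and 5.03% were lower in exposed cells with such a P. With a crossed replicate block, in which replicate 1 of each group was joined with replicate 2 of the other, an alternative chosen after the data were seen, miR-320a-3p also had a P under 0.05, as did 6.84% of all tested miRNAs (2.78% lower in exposed cells). Over all settings tried, the adjusted p of miR-320a-3p was between 0.124 and 1.00.

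miR-320b, the next most abundant member, was counted 6379 and 5820 times in exposed libraries and 3213 and 3598 times in unexposed libraries. Its TMM-scaled levels were 253 and 239 CPM in exposed and 272 and 280 CPM in unexposed cells. On this scale the libraries lay close to each other within each group. The exposed ones were below the unexposed ones, as was so for 14.6% of all tested miRNAs. With libraries scaled by their totals alone the groups overlapped, at 287 and 234 CPM in exposed and 230 and 297 CPM in unexposed cells. The log2 fold change after TMM scaling was -0.17 (standard error 0.21). In edgeR the unadjusted P was 0.446 and the adjusted p 0.966, and the exact permutation p was 0.333. With libraries scaled by their totals alone the log2 fold change was -0.018 (edgeR P 0.953), and with upper quartile scaling it was -0.27 (edgeR P 0.235).

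miR-320c and miR-320d had groups that overlapped. miR-320c stood at 96.1 and 68.2 CPM in exposed and 72.6 and 84.9 CPM in unexposed cells, on 2423, 1660, 856 and 1092 counts. miR-320d stood at 40.6 and 27.9 CPM in exposed and 28.6 and 36.5 CPM in unexposed cells, on 1024, 680, 337 and 469 counts. For both, exposed replicate 1 was the highest library and exposed replicate 2 the lowest, so that the spread within the exposed group was wider than the distance between group means.

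The log2 fold change was 0.061 (standard error 0.26) for miR-320c and 0.076 (standard error 0.29) for miR-320d, with unadjusted P values of 0.821 and 0.801 and an adjusted p of 0.983 each in edgeR. The exact permutation p was 1 for each. With upper quartile scaling the signs turned, to -0.054 and -0.040, where the median of all tested miRNAs was -0.12. Taken relative to that median they were 0.066 and 0.079. Scaling by library totals alone gave 0.21 and 0.22, or 0.069 and 0.078 relative to its median of 0.14. Leaving out exposed replicate 1 turned the signs too, to -0.21 and -0.22, as did leaving out unexposed replicate 1, to -0.051 and -0.092. Without exposed replicate 2 the log2 fold changes were 0.29 and 0.33, and without unexposed replicate 2 they were 0.14 and 0.22.

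miR-320e, the member with the shifted seed, was counted 58 and 42 times in exposed libraries and 29 and 25 times in unexposed libraries, or 2.30 and 1.73 CPM against 2.46 and 1.94 CPM on the TMM scale. The groups overlapped. The log2 fold change was -0.12 (standard error 0.34), with an unadjusted P of 0.723 and an adjusted p of 0.983 in edgeR, and the exact permutation p was 0.667. Its sign turned without exposed replicate 2 (0.072), without unexposed replicate 1 (0.047) and with library size only (0.049, where the median of all tested miRNAs was 0.14). The log2 fold change was -0.23 with upper quartile scaling, -0.35 without exposed replicate 1 and -0.32 without unexposed replicate 2.

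**Figure D2:**
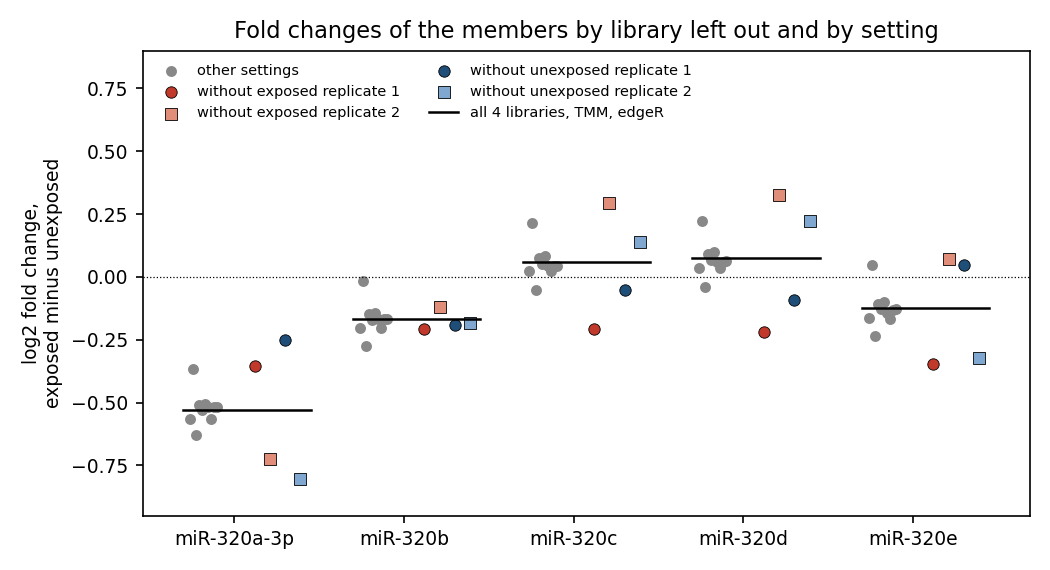
Log2 fold changes (exposed minus unexposed) of the 5 tested members. The black line is the fit to all 4 libraries, grey points are other scalings, filters, tests and blocks, and coloured symbols each leave out 1 library. miR-320a-3p and miR-320b stay below 0 throughout, while miR-320c, miR-320d and miR-320e lie on both sides of 0.

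Since scaling cannot move a ratio within a library, the members were also set against each other. miR-320a-3p made up 85.0% (95% Wilson interval 84.7 to 85.3%) and 89.5% (89.3 to 89.7%) of the family's counts in the exposed libraries, and 92.0% (91.8 to 92.3%) and 88.2% (87.9 to 88.5%) of them without ethanol. Such intervals cover counting error only, and reads carry no molecular identifiers. The shares differed between libraries by more than counting error, but they overlapped between the groups. Exposed cells averaged 87.3 ± 3.20% and unexposed cells 90.1 ± 2.71% (SD, n = 2 each), and the exact permutation p was 0.667. miR-320b accounted for 9.68% and 7.44% of the family in exposed and 5.76% and 8.18% in unexposed cells, miR-320c for 3.68% and 2.12% against 1.54% and 2.48%, and miR-320d for 1.55% and 0.869% against 0.604% and 1.07%. Exposed replicate 1 had the highest share of each of these and unexposed replicate 1 the lowest, with the replicates numbered 2 of both groups in between. The groups overlapped for every member, with an exact permutation p of 0.667 each.

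miR-320b, miR-320c and miR-320d kept closer ratios to each other than to miR-320a-3p. Between the highest and the lowest library, the ratio of miR-320d to miR-320a-3p moved by 2.78-fold, that of miR-320c to miR-320a-3p by 2.59-fold, and that of miR-320b to miR-320a-3p by 1.82-fold. The ratio of miR-320c to miR-320b moved by 1.43-fold. The ratio of miR-320d to miR-320c moved by only 1.09-fold: it was 42.3% (95% Wilson interval 39.3 to 45.5%) and 41.0% (37.5 to 44.8%) in exposed and 39.4% (34.7 to 44.7%) and 42.9% (38.5 to 47.9%) in unexposed cells.

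Each of these last intervals held the other 3 values. A chi-square statistic for equal miR-320d and miR-320c proportions in all libraries was 0.454 per degree of freedom, where 1 is the size that counting noise gives, against 115 for miR-320d and miR-320a-3p. The SD of the log2 ratio over the 4 libraries was 0.055. Among 70500 pairs of the 376 tested miRNAs at 10 CPM or more, the median SD was 0.37 and 0.487% of pairs had a smaller one than miR-320d and miR-320c. For miR-320d and miR-320a-3p 82.2% of pairs had a smaller SD. This share was 19.4% for miR-320c and miR-320b, 27.6% for miR-320d and miR-320b, and 47.2% for miR-320b and miR-320a-3p. The chi-square statistic was 31.3 per degree of freedom for miR-320c and miR-320b, and 19.7 for miR-320d and miR-320b. The pairs share their libraries, and the 2 members share their first 18 bases, so this is a description and not a test. The share of reads common to both members was not tested.

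**Figure D3:**
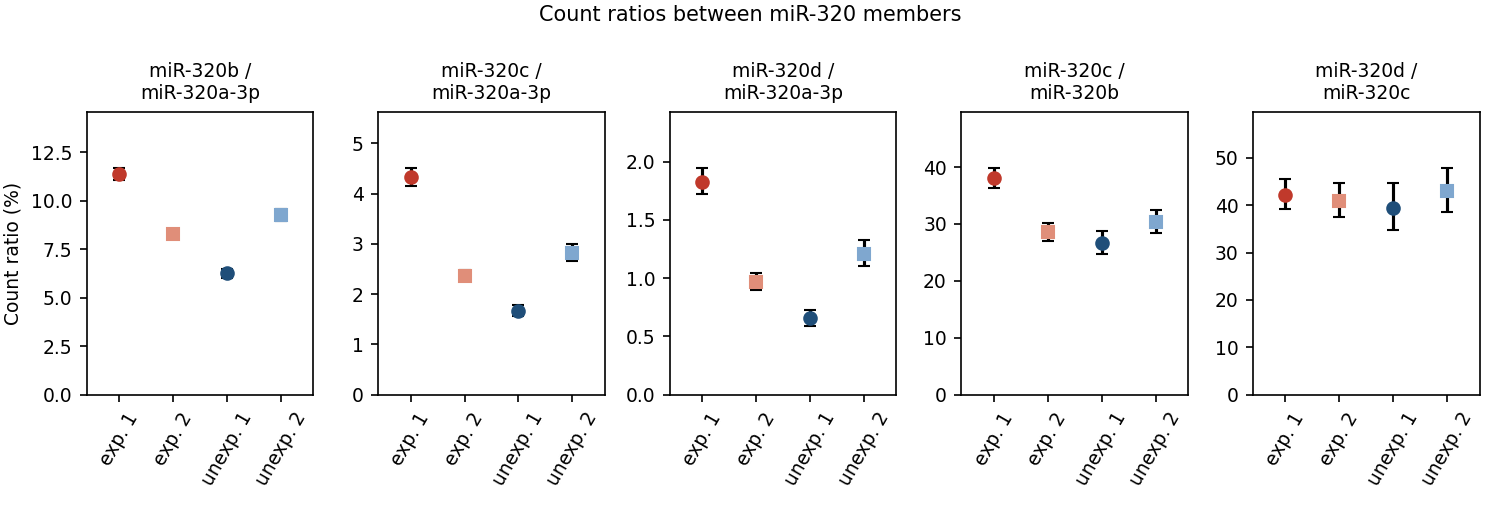
Count ratios between miR-320 members in each library (percent, axes start at 0), with 95% Wilson intervals for counting error. The ratios to miR-320a-3p differ between libraries by far more than their intervals, whereas miR-320d was 39.4% to 42.9% of miR-320c in all 4 libraries.

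The 5p strand of the miR-320a hairpin was almost absent. miR-320a-5p was counted 10 and 4 times in exposed libraries and 2 and 4 times in unexposed libraries, too few to be tested. Its share of both arms was 0.0179% (95% Wilson interval 0.00970 to 0.0329%) and 0.00571% (0.00222 to 0.0147%) in exposed cells. In unexposed cells it was 0.00390% (0.00107 to 0.0142%) and 0.0103% (0.00401 to 0.0265%). The intervals overlapped, and a difference between the groups was not detectable at this depth. Over all libraries the minor arm was 0.00925% of the miR-320a counts, and 20 of 211 precursors with both arms listed and at least 1000 counts had a lower minor-arm share. The median of these precursors was 1.47%. The table lists no second arm for miR-320b to miR-320e, so the same balance cannot be drawn for them.

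miR-4429, which shares the seed of miR-320b, miR-320c and miR-320d, was rare. MIR4429 lies on chromosome 2 from 11540605 to 11540677, opposite to GREB1 and within one of its introns. Its counts were 34 and 36 in exposed and 17 and 20 in unexposed libraries, or 1.35 and 1.48 CPM against 1.44 and 1.55 CPM on the TMM scale. The groups overlapped, and the log2 difference of -0.085 (standard error 0.33) had an unadjusted P of 0.805 in edgeR. Over the settings tried it ranged from -0.19 to 0.058, so its sign turned as well.

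A list of miR-484 and of the arms of 9 miRNAs described as mirtrons was read beside the family. That each of them bypasses Drosha was taken from such descriptions and was not tested. All 19 entries were in the table, 3 of them with 0 counts in every library, and 10 were tested. Of these, 8 had a positive and 2 a negative log2 fold change, against 421 and 442 of all 863 tested miRNAs. The 2 negative ones were miR-1228-5p (-0.44) and miR-1228-3p (-0.0081). The median of the list was 0.14 against -0.010 over all tested miRNAs. In the list, 0 had an unadjusted P under 0.05 in edgeR (background 4.52%), so no direction is read from these signs. The most abundant mirtron arm was miR-877-5p, which averaged 84.5 ± 11.3 CPM with ethanol and 80.9 ± 12.2 CPM without it (SD, n = 2 each).

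miR-484 is, like miR-320a, made from a capped hairpin at a transcription start. MIR484 lies on chromosome 16 from 15643294 to 15643372, in an exon of NDE1 and 27 bases from one of its starts. It was counted 38334 and 31021 times in exposed libraries and 12617 and 12573 times in unexposed libraries, which are 1520 and 1274 CPM against 1070 and 977 CPM after TMM scaling. The groups did not overlap, and of all tested miRNAs 18.8% had both exposed libraries above both unexposed ones. Exposed cells were higher by a log2 fold change of 0.45 (standard error 0.22), with an unadjusted P of 0.0716 and an adjusted p of 0.922 in edgeR. The exact permutation p of miR-484 was 0.333. When libraries were scaled by their totals alone the unadjusted edgeR P of miR-484 was 0.0488, and its adjusted p was never under 0.512 in the settings tried.

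Within a library, miR-484 was 68.4% and 44.3% of miR-320a-3p in exposed and 24.6% and 32.4% in unexposed cells. This ratio did not overlap between the groups, as was so for 34.2% of the ratios between pairs of miRNAs at 10 CPM or more. The difference between the changes of the 2 miRNAs was not tested beyond this.

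**Figure D4:**
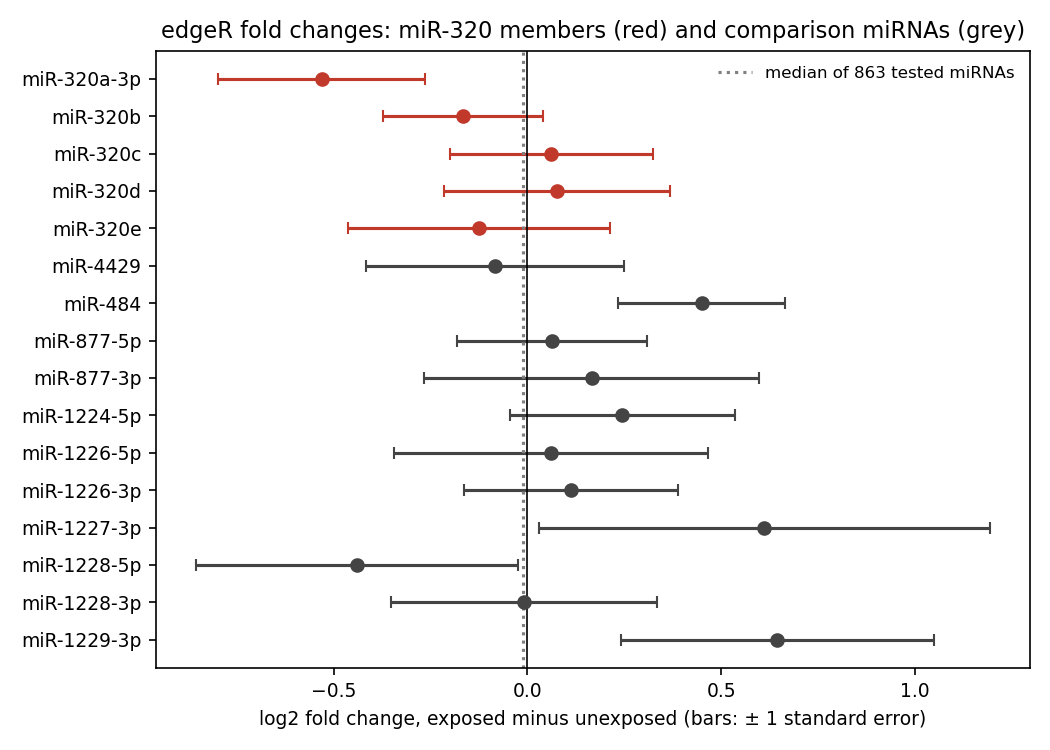
Log2 fold changes of exposed against unexposed cells from edgeR with ± 1 standard error, for the 5 tested members (red) and for miR-4429, miR-484 and 9 tested arms of miRNAs described as mirtrons (grey). The dotted line is the median of the 863 tested miRNAs, and none of the values shown had an unadjusted P under 0.05.

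The pattern of the family sum over the 4 libraries was compared with that of 372 other tested miRNAs at 10 CPM or more. Likeness was measured as the root-mean-square difference of the centred log2 levels, which is 0 for equal patterns and had a median of 0.38. The nearest were miR-191-5p at 0.033, miR-146a-5p at 0.082 and miR-454-3p at 0.085. For miR-191-5p the levels were 3784 and 4871 CPM in exposed and 6766 and 4912 CPM in unexposed cells, which differed by -0.43 on the log2 scale (standard error 0.26, unadjusted P 0.139 in edgeR). It was highest in unexposed replicate 1 and lowest in exposed replicate 1, as the family sum was. With 4 libraries such likeness is a description only.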

How the data were processed

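Small RNA libraries (NEBNext) of exposed and unexposed hESC-derived cortical interneurons (2 each) were sequenced by the authors. They ran CAP-miRseq and deposited whole-number counts for each mature miRNA, not normalized. The submitters' processing notes name hg19. Tool versions, annotation release and treatment of reads matching several miRNAs are not given in the sources used here. Groups came from the sample labels.

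Members were taken by name. The members and lists were chosen with earlier results of these data known. Also named were miRNAs sharing a member's seed and the 3 patterns nearest to the family sum. From the list of miRNAs described as Drosha-independent, miR-484, the most abundant mirtron arm and any arm with P under 0.05 were to be named. edgeR 4.0.16 in R 4.3.3 was used with filterByExpr (minimum count 10, minimum total 15), TMM factors (0.846 to 1.13), the quasi-likelihood test without covariates and Benjamini-Hochberg adjustment over 863 miRNAs. Standard errors came from the F statistic. Permutation tests used log2 CPM with 0.5 added to each count. Also tried were DESeq2 1.42.0, limma-voom (limma 3.58.1), other scalings and filters, a replicate block and leaving out each library. The fit was tested on simulated data. There, 65.7% of 2-fold and 97.8% of 4-fold changes reached an edgeR P under 0.05, as did 5.48% of unchanged miRNAs. Changes under 2-fold were not simulated. A floor of 3 counts is 0.121 to 0.248 CPM. Sequences came from RefSeq (GRCh38.p14) and gene positions from GENCODE 29, both matched by name.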

Additional observations from a re-analysis of the deposited data

How the results depend on the processing

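Of the settings run for the tested members, the log2 fold changes of miR-320a-3p and miR-320b were negative in every one, though miR-320b was close to 0 with library size only (-0.018). With each library left out in turn they ranged from -0.80 to -0.25 for miR-320a-3p, from -0.21 to -0.12 for miR-320b, from -0.21 to 0.29 for miR-320c, from -0.22 to 0.33 for miR-320d and from -0.35 to 0.072 for miR-320e. Upper quartile scaling turned miR-320c (-0.054) and miR-320d (-0.040), and library size only turned miR-320e (0.049); these scalings moved the median of all tested miRNAs by -0.11 and 0.15, and relative to that median no sign turned. The family sum was -0.096 without miR-320a and between -0.73 and -0.24 with a library left out. In edgeR, 39 tested miRNAs passed an unadjusted P of 0.05. This count was 94 with no filter on low counts, 12 without exposed replicate 1, 99 without unexposed replicate 1 and 109 without unexposed replicate 2, and with a library left out between 0 and 1 of the members passed. With a library left out, the exposed minus unexposed difference in the miR-320a-3p share of the family, -2.87 percentage points with all libraries, ranged from -5.14 to -0.608, and without exposed replicate 1 the signs of the miR-320e share and of both 5p shares turned.

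Same-numbered libraries had a correlation of -0.186 in their deviations across miRNAs. The labels give a replicate number but do not say whether it marks a pairing. With 2 libraries in each group this correlation cannot decide that. With the replicate number as a block, 25 miRNAs and 0 members passed that P. With the crossed replicate block, chosen after seeing the data, 59 miRNAs (6.84%) and 1 member did, namely miR-320a-3p (log2 fold change -0.52, unadjusted P 0.0276, adjusted p 0.635 in edgeR). Depth limits the rare members: miR-320a-5p rests on 20 counts in all and miR-320e on 154.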

Other observations

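The single members were also set beside other miRNAs by the root-mean-square difference of their centred log2 levels over the 4 libraries, a step chosen after their values were seen. Among 375 tested miRNAs at 10 CPM or more, miR-320c was nearest to miR-574-3p (0.044), which stood at 84.6 and 59.3 CPM in exposed and 67.4 and 78.9 CPM in unexposed cells. miR-320d came next (0.048), followed by miR-197-3p (0.060). miR-320d was nearest to miR-320c, followed by miR-3158-3p (0.060) and miR-574-3p (0.069). miR-320a-3p came in place 329 for miR-320c (0.49) and in place 332 for miR-320d (0.53), farther than the medians of 0.29 and 0.31. miR-320b was nearest to miR-148b-3p (0.045), miR-30e-3p (0.051) and miR-891a-5p (0.052).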
